A study of Mus musculus with 8 samples.

Results

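The genes described here encode 7 receptors for neurotrophic factors: Ret, Gfra1, Gfra2 and Gfra3 of the GDNF family, and Ntrk2, Ntrk3 and Ngfr of the neurotrophin family. They were found by gene symbol in the deposited table, and all 7 were among the 15030 genes tested, of 40800 gene identifiers in all. RNA was sequenced from whole dorsal root ganglia, where the cell bodies of the body's sensory neurons sit among glia. The 4 wild-type samples, numbered 1, 3, 4 and 8, were from C57BL/6 mice. The 4 mutants, numbered 1 to 4, were homozygous for a gene trap in Tmem184b on a C57BL/6 background, and every mouse was 6 months old. The trap, an inserted cassette that takes over splicing so that the rest of the gene is not made, is homozygous in the animal, and the labels name no promoter or Cre that would limit it to neurons. The labels give no treatment, sex, litter or dissection date.

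GDNF family ligands do not bind the RET kinase alone: each binds a GFRα protein held on the cell surface by a lipid anchor, and the complex then switches on RET. GFRα1 prefers GDNF, GFRα2 neurturin and GFRα3 artemin. Neurotrophins bind Trk receptor kinases, BDNF and neurotrophin-4 through TrkB (Ntrk2) and neurotrophin-3 through TrkC (Ntrk3), and all of them bind the p75 receptor (Ngfr), which has no kinase. In adult ganglia, RET with GFRα2 is known from nonpeptidergic nociceptors and from some touch neurons, GFRα3 from peptidergic nociceptors, TrkB from touch neurons with thinly myelinated axons, TrkC from proprioceptors and other large neurons, and p75 from many neurons and from glia.

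Related receptors can share reads where their sequences are alike. The most alike coding stretches of Ntrk2 and Ntrk3 are shown, because the comparison of these genes depends on telling them apart. They were read from GENCODE M21 coding sequences on the GRCm38 build, 5′ to 3′, and the bases that differ are in capitals. The stretches shared 78 of 90 bases (86.7%).

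Ntrk2: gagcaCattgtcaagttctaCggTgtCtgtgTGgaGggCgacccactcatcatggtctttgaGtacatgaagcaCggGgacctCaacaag

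Ntrk3: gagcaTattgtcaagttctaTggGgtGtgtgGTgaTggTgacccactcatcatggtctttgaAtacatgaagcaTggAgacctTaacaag

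The stretches begin at coding base 1789 of Ntrk2 and 1792 of Ntrk3. The longest run of identical bases was 28 between the coding sequences of Gfra1 and Gfra2, 11 between Gfra1 and Gfra3, 10 between Gfra2 and Gfra3 and 23 between Ntrk2 and Ntrk3. Each of these runs is shorter than the reads, which the labels give as 150 bases. In the same annotation Gfra1 overlaps 1 other gene, Ntrk2 overlaps 4 and Ntrk3 overlaps 4, and use of the strand in counting is not given in the sources used here, so the counts of these 3 genes may include reads of their neighbours. A value per gene also sums isoforms, so the full-length and kinase-less forms of TrkB and TrkC are not separated.

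Values below are moderated log2 CPM (log2 of CPM, the reads of a gene scaled to a common library size, with a small prior added), and plain CPM where stated. The libraries held 6183618 to 7983821 reads. As a check of the labels, reads of Tmem184b itself numbered 1086 to 1456 per wild type and 34 to 58 per mutant. Across all tested genes the limma fit called 820 (5.46%, adjusted p under 0.05), of which 423 were higher and 397 lower with the trap, and 3206 had an unadjusted p under 0.05. That balance depends on scaling: centring on the sample medians gave 204 higher and 706 lower, quantile normalization 271 and 422, and centring on a list of 10 pan-neuronal genes 986 and 249. Leaving out wild type 1 gave 174 higher and 230 lower genes. The higher genes numbered 226 with wild type 3 left out, 183 with mutant 1, 266 with mutant 2 and 206 with mutant 4.

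Of the 7 receptors, 2 fell in the mutants and none rose. Against this, 2.64% of all tested genes fell and 2.81% rose. Ret, the shared signalling kinase of the GDNF family, was at 80.8% of its wild-type level, and Gfra2, the neurturin co-receptor, at 71.3%. The median difference over the 7 was -0.08, beside 0.07 over all tested genes. Groups of samples did not overlap for Ret, Gfra2 and Gfra1, and 12.4% of all tested genes did not overlap either. In whole ganglia, fewer cells of a type and less RNA per cell cannot be told apart.

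**Figure D1:**
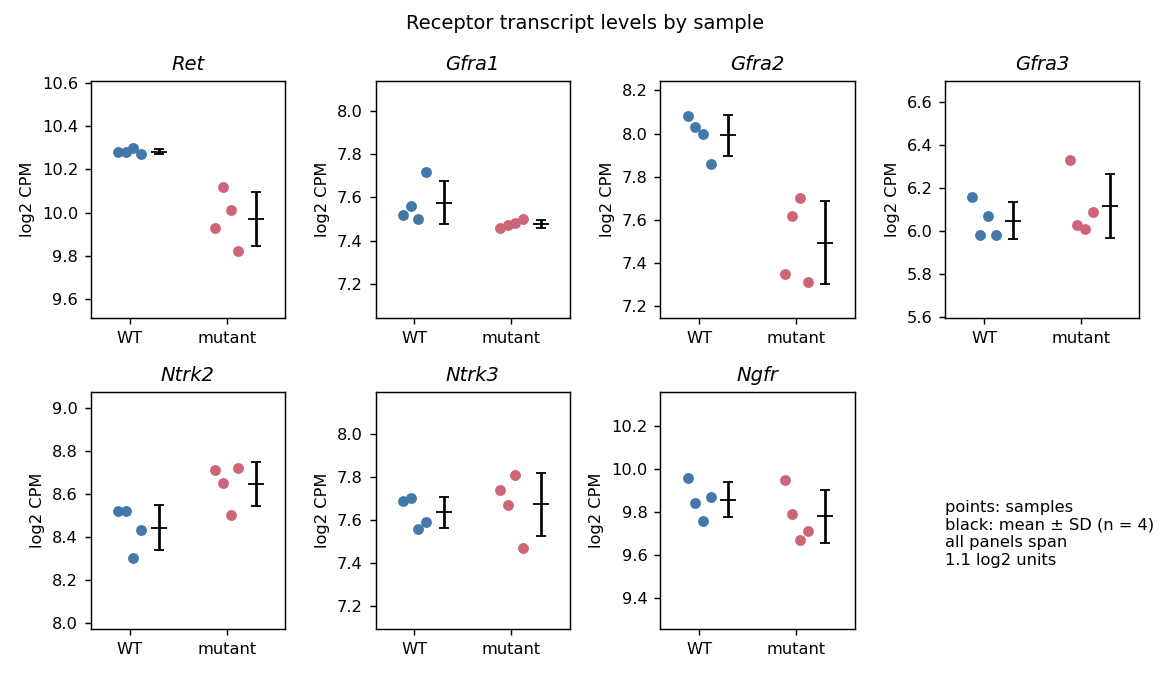
Moderated log2 CPM of each receptor in every sample, with wild types and mutants side by side, each point 1 sample and the black marks the mean ± SD of 4. Every mutant lies below every wild type for Ret and Gfra2, while the groups overlap for Gfra3, Ntrk2, Ntrk3 and Ngfr.

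Ret measured 10.28, 10.28, 10.30 and 10.27 in wild types 1, 3, 4 and 8, and 9.93, 10.12, 10.01 and 9.82 in mutants 1 to 4. The wild types lay close together, and the mutants were all below them and spread wider, mutant 4 lowest. In CPM the level was 1244 ± 11.5 (SD, n = 4) in the wild types against 1005 ± 86.4 (SD, n = 4) in the mutants. The log2 difference was -0.31 (SE 0.061, 95% interval -0.44 to -0.18, limma adjusted p = 0.00994), lower in 4 of 4 mutants. Among all tested genes, 20.6% differed by more in size than Ret did. Without a trend of variance on level, which called 142 genes in all, the adjusted p of Ret was 0.0971.

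Gfra2 measured 8.08, 8.03, 8.0 and 7.86 in the wild types against 7.35, 7.62, 7.70 and 7.31 in the mutants. Mutants 1 and 4 were lowest, and the highest mutant was still below the lowest wild type. The level was 254 ± 16.3 CPM (SD, n = 4) against 181 ± 24.3 CPM (SD, n = 4). The log2 difference was -0.49 (SE 0.083, 95% interval -0.67 to -0.32, limma adjusted p = 0.00389). A larger difference in size was found in 8.4% of all tested genes. The adjusted p of Gfra2 was 0.0758 without the variance trend.

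Gfra1, the GDNF co-receptor, measured 7.52, 7.56, 7.50 and 7.72 in the wild types against 7.46, 7.47, 7.48 and 7.50 in the mutants. The groups met at their edges, since the highest mutant and the lowest wild type were equal to 2 decimals, and wild type 8 stood above the rest. Its level was 191 ± 13.3 CPM (SD, n = 4) against 178 ± 2.25 CPM (SD, n = 4). The difference did not pass the test, at -0.10 log2 (95% interval -0.22 to 0.02, limma adjusted p = 0.336).

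Gfra3, the artemin co-receptor, measured 6.16, 5.98, 6.07 and 5.98 in the wild types against 6.33, 6.03, 6.01 and 6.09 in the mutants. The groups overlapped, with mutant 1 the highest sample. The levels were 66.0 ± 4.07 CPM and 69.3 ± 7.35 CPM (SD, n = 4 each). The log2 difference was 0.07 (95% interval -0.10 to 0.23, limma adjusted p = 0.679), and its sign turned under median centring and without mutant 1.

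Ntrk2, encoding TrkB, measured 8.52, 8.52, 8.30 and 8.43 in the wild types against 8.71, 8.65, 8.50 and 8.72 in the mutants. Of the mutants 3 lay above every wild type, and mutant 3 lay within their range. The level was 348 ± 25.0 CPM against 400 ± 28.0 CPM (SD, n = 4 each), 115% of the wild type. The log2 difference was 0.20 (SE 0.066, 95% interval 0.06 to 0.34, limma adjusted p = 0.0903) and missed the threshold. The interval is not adjusted for the number of genes. Ntrk2 passed under pan-neuronal centring (0.27, adjusted p = 0.0319), where 6.56% of all tested genes were called higher and 1.66% lower. It also passed under quantile normalization (0.25, adjusted p = 0.0352), with 1.8% called higher and 2.81% lower, and without mutant 3 (0.25, adjusted p = 0.0341). Under median centring its difference was 0.11 (adjusted p = 0.479).

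Ntrk3, encoding TrkC, measured 7.69, 7.70, 7.56 and 7.59 in the wild types against 7.74, 7.67, 7.81 and 7.47 in the mutants. Mutant 3 was the highest and mutant 4 the lowest of the 8 samples, so the wild types lay inside the mutants' range. The levels were 199 ± 9.75 CPM and 205 ± 20.6 CPM (SD, n = 4 each). The log2 difference was 0.04 (95% interval -0.12 to 0.19, limma adjusted p = 0.815), and its sign turned under median centring and without mutant 3.

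Ngfr, encoding p75, measured 9.96, 9.84, 9.76 and 9.87 in the wild types against 9.95, 9.79, 9.67 and 9.71 in the mutants. Mutants 3 and 4 lay just below the wild types and the other mutants within their range. The levels were 929 ± 51.5 CPM and 881 ± 77.7 CPM (SD, n = 4 each). The log2 difference was -0.08 (95% interval -0.22 to 0.06, limma adjusted p = 0.532) and did not pass.

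**Figure D2:**
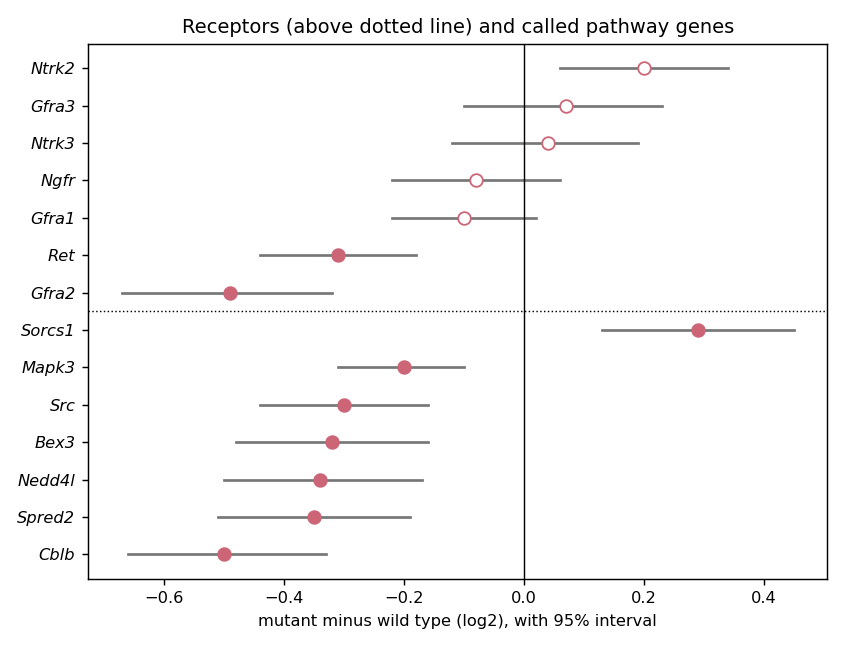
Difference in mean moderated log2 CPM, mutant minus wild type, for each receptor and, below the dotted line, each called pathway gene, with the 95% interval from limma before adjustment and filled where called. Among the receptors, the intervals of Ret (-0.44 to -0.18) and Gfra2 (-0.67 to -0.32) lie furthest below 0, that of Ntrk2 (0.06 to 0.34) lies above it, and the others span 0.

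Levels can be set side by side only per length. In CPM per kilobase of the longest annotated transcript, the wild-type means were 270 for Ngfr, 228 for Ret, 73.2 for Gfra2, 41.1 for Gfra1, 39.8 for Ntrk2, 33.1 for Gfra3 and 10.1 for Ntrk3. Neighbouring ranges over the 4 wild types overlapped for Gfra1 (39.0 to 45.3) and Ntrk2 (36.0 to 42.1), so the order of those genes is not resolved. On the same scale the mutant means were 256 for Ngfr, 184 for Ret, 52.2 for Gfra2, 45.8 for Ntrk2, 38.3 for Gfra1, 34.7 for Gfra3 and 10.4 for Ntrk3. The mutant ranges of Gfra2 (45.6 to 59.8) and Ntrk2 (41.2 to 48.3) overlapped, and that of Gfra1 (37.8 to 38.9) lay inside that of Gfra3 (32.2 to 40.1), so neither order is resolved in the mutants. The wild-type ranges of these pairs were separate. The choice of length matters for the Trk genes: per kilobase of all exons together, the wild-type means were 18.1 for Ntrk2 and 6.60 for Ntrk3.

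Because GFRα proteins work with RET, the log2 ratio of each co-receptor to Ret was taken in every sample, along with 3 ratios among the neurotrophin receptors. Gfra3 to Ret was -4.11, -4.29, -4.23 and -4.29 in the wild types against -3.61, -4.09, -4.0 and -3.73 in the mutants. The groups did not overlap, and the mutants were higher by 0.38 (exact two-sided permutation p = 0.0286, the smallest that 70 assignments allow, and 0.0857 adjusted over 6 ratios). Ngfr to Ntrk2 was 1.44, 1.32, 1.46 and 1.44 in the wild types against 1.24, 1.14, 1.17 and 0.99 in the mutants. The mutants were lower in 4 of 4, by a difference of -0.28 (exact permutation p = 0.0286, adjusted 0.0857).

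Gfra1 to Ret differed by 0.21 and Gfra2 to Ret by -0.18, each with an exact permutation p of 0.0571 (adjusted 0.0857). Wild type 8 had the lowest Gfra2 to Ret ratio of its group (-2.42), below that of mutant 3 (-2.31), so those groups overlapped. Ntrk2 to Ntrk3 differed by 0.16 and Ngfr to Ntrk3 by -0.12 (exact permutation p = 0.257 for each, adjusted 0.257). None of the 6 ratios passed after adjustment, and 4 had adjusted values of 0.0857. With 4 samples per group, any ratio could pass only if most of the 6 separated the groups completely. Missing the threshold therefore says little about a single ratio.

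**Figure D3:**
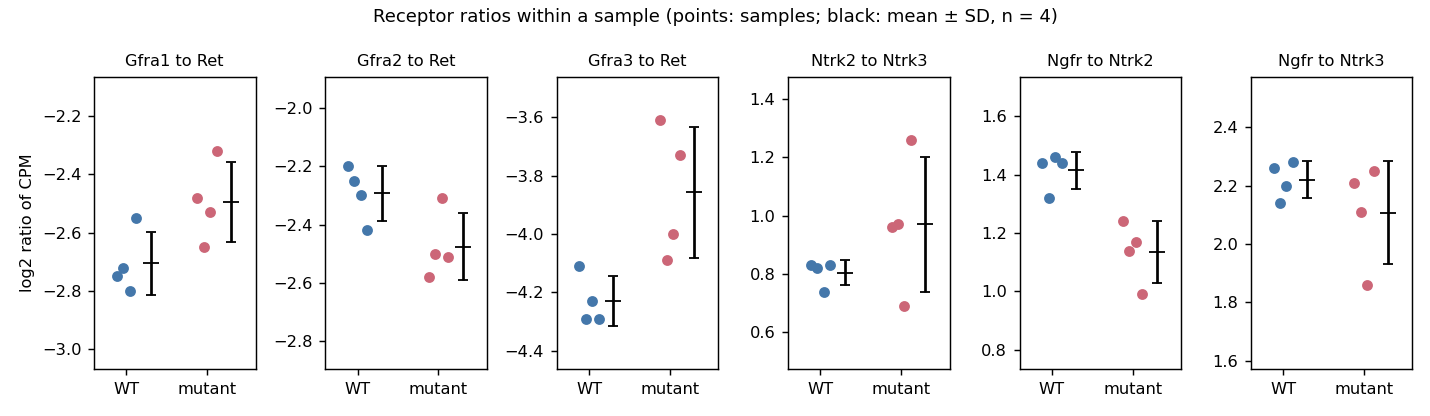
Log2 ratio between receptor levels in each sample, with wild types and mutants side by side and black marks at the mean ± SD of 4. The groups separate for Gfra3 to Ret and Ngfr to Ntrk2 and overlap for the other ratios.

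Ret and Gfra2 are background markers of nonpeptidergic neurons, so the lists of sensory neuron classes are given beside them. All 10 genes of the list for the NP1 class, the nonpeptidergic nociceptors, fell, with a median difference of -0.69. Of these, Cd55 lost its call without mutant 1 or 4 or wild type 3 or 8 (adjusted p 0.0553 to 0.068), and the other 9 kept theirs with each of the 8 samples left out. Among them were Mrgprd, a Mas-related receptor that marks the class (-0.85), P2rx3, an ATP-gated channel (-0.64), Scn11a, a sodium channel (-0.71), and Runx1, a transcription factor of the lineage (-0.41), with limma adjusted p values of 0.0019, 0.00178, 0.00157 and 0.00567. The summed level of the list ranged from 2695 to 2838 CPM over the wild types and from 1454 to 2122 CPM over the mutants. Its part in the Ret and Gfra2 differences was not tested.

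The mean log2 CPM of the NP1 list was 7.54, 7.55, 7.56 and 7.49 in the wild types against 6.73, 7.01, 7.08 and 6.59 in the mutants. Mutant 4 was lowest, then 1, 2 and 3, which is also the order of Gfra2 over the mutants, whereas Ret ran 4, 1, 3 and 2. Relative to the list mean, a measure added after the data were seen, Ret was 2.75 ± 0.021 in the wild types against 3.12 ± 0.134 in the mutants (SD, n = 4 each). Ret thus differed by 0.37 relative to the list (exact permutation p = 0.0286, adjusted over 2 measures 0.0286), being higher in 4 of 4 mutants. Gfra2 relative to the list was 0.45 ± 0.074 and 0.64 ± 0.052 (SD, n = 4 each), a difference of 0.19 (exact permutation p = 0.0286, adjusted 0.0286). The list was already seen to fall by more (median -0.69) than Ret (-0.31) and Gfra2 (-0.49) when the measure was added. These p values therefore restate known differences and are not separate evidence. On this measure both adjusted values became 0.0571 without mutant 4 and without each of wild types 1, 3, 4 and 8, with differences of 0.33 to 0.38 for Ret and 0.16 to 0.21 for Gfra2.

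**Figure D4:**
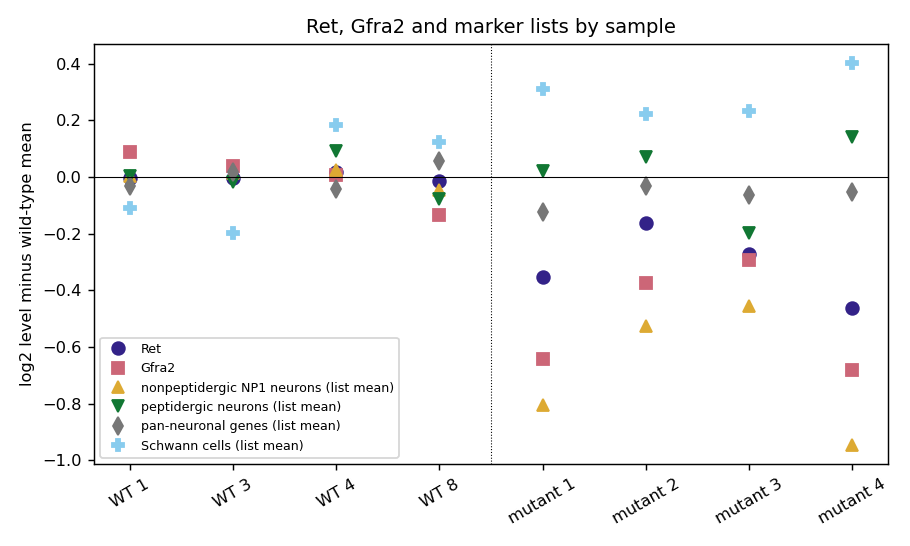
Log2 level of Ret, of Gfra2 and of the means of the NP1, peptidergic, pan-neuronal and Schwann cell lists in each sample. The wild-type mean is subtracted, and each point is 1 sample. In the mutants the NP1 list lies below Gfra2, and Gfra2 below Ret, in each of the 4 samples.

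The 2 lists of itch neurons also fell: 3 of 3 genes of the NP2 class (median -0.80) and 7 of 8 of the NP3 class (median -1.86). Of the NP2 genes, Mrgpra3 kept its call in 9 of 21 alternatives, and lost it without mutant 1, 2 or 4 or wild type 1 or 8 (adjusted p 0.057 to 0.115). Of 4 genes that mark C low-threshold mechanoreceptors, another class that carries RET and GFRα2, none passed, and the median was -0.02. In the peptidergic list, the class of GFRα3, 1 of 7 fell, the neuropeptide gene Calcb (-0.31), with a median of 0.10. In the list of large neurons with heavy neurofilament, which includes the classes of TrkB and TrkC, 1 of 9 rose, the calcium-binding protein gene Calb1 (0.54), with a median of 0.06. Calcb lost its call without mutant 1 or 3 or wild type 3, 4 or 8 (adjusted p 0.0522 to 0.0838), and Calb1 without mutant 1 or 4 or wild type 1 or 3 (0.065 to 0.084). Of the pan-neuronal genes 1 of 10 fell, Syt1 (-0.25), with a median of -0.10.

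Ngfr and the kinase-less form of TrkB are also known from glia. Of the satellite glia list 1 of 6 rose, Glul, the glutamine synthetase gene (0.49), and the summed level ranged from 1779 to 2182 CPM over the wild types and from 1955 to 2778 CPM over the mutants. Of the Schwann cell list 4 of 13 rose, S100b, Ncmap and Drp2 among them, and the sums were 4168 to 4797 CPM and 4618 to 5404 CPM. Ncmap kept its call in 21 of 21 alternatives, Drp2 in 16 and S100b in 11. S100b lost it with any sample but mutant 3 or wild type 8 left out (adjusted p 0.0567 to 0.137), and Drp2 without mutant 1 or 4 or wild type 1 or 3 (0.054 to 0.0693). Both lists had a median difference of 0.25. Mutant 4, the sample highest in Ntrk2 (8.72), also had the highest list means for satellite glia (7.06) and Schwann cells (7.71). Mutant 1, nearly level with it in Ntrk2 (8.71), had list means of 6.78 and 7.62. For Ngfr, mutant 4 (9.71) lay below every wild type. The part of these cells in the Ntrk2 and Ngfr values was not tested.

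Other tissue was checked in the same way. Fibroblast genes had a median of 0.30 with 1 of 6 higher (Dcn), immune genes 0.53 with 1 of 6 higher (Cd163), and endothelial genes 0.14 with none of 5 called. Cd163 lost its call without mutant 1 or 4 or wild type 8 (adjusted p 0.0552 to 0.0727). Skeletal muscle genes had a median of 1.66 with none of 5 called, and their summed level ranged from 2.86 to 31.6 CPM over the wild types and from 10.2 to 149 CPM over the mutants, mutant 4 highest. With mutant 4 left out, the difference of Ret was -0.26 (limma adjusted p = 0.015) and that of Gfra2 -0.43 (limma adjusted p = 0.00824). Of the 6 central nervous system genes 4 were tested and none was called.

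The ligands were scarce in the ganglion, and 3 of 9 passed the filter on low values. Bdnf, the TrkB ligand, had 177 to 194 reads per wild type and 128 to 183 per mutant (difference -0.12, limma adjusted p = 0.618). Nrtn, the neurturin gene, had 6 to 10 and 9 to 11 reads (0.50, adjusted p = 0.295). Gdnf had at most 5 reads in any library, and Artn, Pspn, Gdf15, Ntf3 and Ntf5 had 3 or fewer in every one, so no change in them was detectable at this depth.

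Of 12 other receptors and co-receptors 11 were tested and 1 rose. Sorcs1, a sorting receptor of the sortilin family, measured 5.84, 5.69, 5.79 and 5.75 in the wild types against 6.11, 5.88, 6.12 and 6.12 in the mutants. Every mutant exceeded every wild type, by the least in mutant 2 (difference 0.29, SE 0.073, limma adjusted p = 0.0324). The call was kept in 12 of 21 alternatives, and ended with any sample but mutant 2 or wild type 4 left out (adjusted p 0.0565 to 0.0939). Sorcs1 overlaps 3 other annotated genes, so its counts may include their reads. Sort1, which pairs with p75 to bind proneurotrophins, differed by 0.15 (adjusted p = 0.186), and its relatives Sorcs2 and Sorcs3 by 0.28 (adjusted p = 0.222) and 0.16. Ncam1, which can act as a GDNF receptor without RET, differed by -0.18 (adjusted p = 0.115), and Gfra4, the persephin co-receptor, by 0.17 (adjusted p = 0.355). Gfral, the GDF15 receptor of the brainstem, had at most 1 read. Lingo1 (-0.08) and Rtn4r (-0.26), which form a complex with p75, did not pass, nor did Sdc3 (-0.05), Nradd (-0.08) and Kidins220 (0.05).

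Downstream of the receptors, the lists hold 27 adaptors, 23 genes of kinase cascades, 16 feedback inhibitors, 15 p75 effectors and 10 genes of receptor trafficking. With the ligands and other receptors, 112 genes were listed, 104 were tested, 1 rose and 6 fell, so 6.73% were called beside 5.46% of all tested genes. Their median difference was -0.02 and the median size of difference 0.09, beside 0.14 over all tested genes. The sets were not matched for level, on which the size of a difference can depend. Leaving out wild type 1 left 2 genes that fell, leaving out wild type 3 left 3, and pan-neuronal centring left 2. The count of genes that rose was 0 with mutant 1, mutant 4 or any of wild types 1, 3 and 8 left out, and 2 with wild type 4 left out.

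Cblb, a ubiquitin ligase that removes activated receptor kinases from the surface, had the largest difference of the 7 called genes. It measured 5.97, 5.92, 6.10 and 5.86 in the wild types against 5.57, 5.51, 5.50 and 5.30 in the mutants, which did not overlap. The level was 62.3 ± 4.52 CPM against 44.1 ± 3.50 CPM (SD, n = 4 each), a log2 difference of -0.50 (SE 0.079, limma adjusted p = 0.00249). Cblb was called under each of 21 alternative settings. Cblb overlaps 1 other annotated gene, and Nedd4l, described next, overlaps 2, so their counts may include reads of those neighbours.

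The feedback list held 2 more genes that fell. Spred2, an inhibitor of the RAS to ERK cascade, differed by -0.35 (limma adjusted p = 0.0142) and Nedd4l, a ubiquitin ligase, by -0.34 (adjusted p = 0.02). Mutant 4 was the lowest sample for both, at 6.01 for Spred2 and 8.08 for Nedd4l. Src, the membrane-linked tyrosine kinase, was lower in the mutants by a difference of -0.30 (adjusted p = 0.0163), and Mapk3, the ERK1 kinase gene, by -0.20 (adjusted p = 0.0287), a call kept in 10 of 21 alternatives. Bex3, an adaptor of p75 that the table lists as Ngfrap1, differed by -0.32 (adjusted p = 0.0242). Under pan-neuronal centring the adjusted p was 0.057 for Src, 0.152 for Mapk3, 0.0506 for Spred2 and 0.0536 for Nedd4l. Without wild type 1 it was 0.062 for Src, 0.095 for Mapk3, 0.0545 for Spred2, 0.0696 for Nedd4l and 0.0565 for Sorcs1. Without wild type 3 it was 0.0616 for Mapk3, 0.0568 for Nedd4l and 0.074 for Bex3. Mapk3 also missed the threshold without mutant 1 (0.0744), mutant 4 (0.0587) or wild type 4 (0.0515) and under quantile normalization (0.0857), and Bex3 without mutant 1 (0.0722) or wild type 8 (0.0645).

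**Figure D5:**
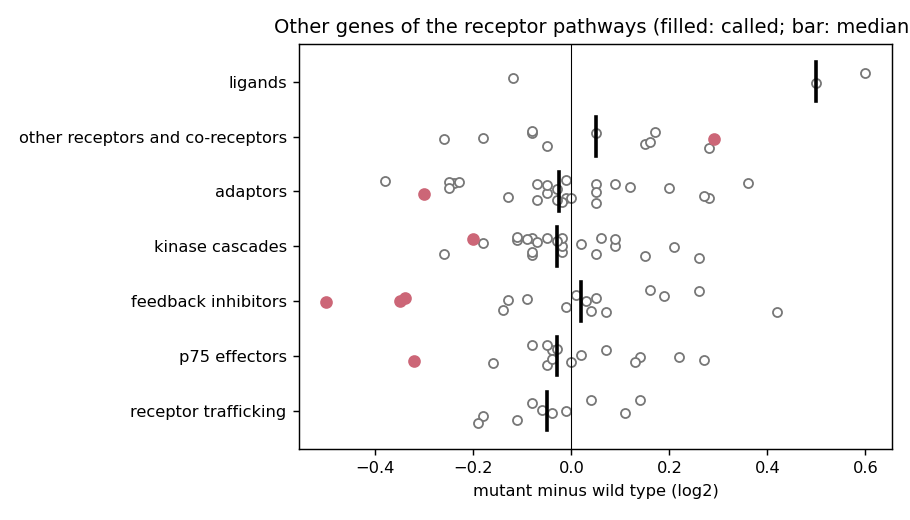
Difference in moderated log2 CPM, mutant minus wild type, of each tested gene in 7 lists of the receptor pathways, filled where limma's adjusted p was under 0.05, with a bar at each list's median. The 7 called genes are spread over 5 of the lists, and ligands and receptor trafficking hold none.

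Genes whose pattern over the 8 samples was most like that of the receptors that fell were sought among 8058 tested genes with a mean of at least 4 log2 CPM. These correlations include any difference between the genotypes, so they are a description. For Ret they were Mapk3 (r = 0.986, rho = 0.929), Evi5l (r = 0.984, rho = 0.786) and Syt9, a synaptotagmin (r = 0.982, rho = 0.929). Evi5l was not itself called (difference -0.16, limma adjusted p = 0.117). For Gfra2 they were Tmem45b (r = 0.993, rho = 1.0), Rgs8, a regulator of G protein signalling (r = 0.993, rho = 0.952), and Rasgrp1, an activator of RAS (r = 0.990, rho = 1.0). Evi5l, Tmem45b and Rgs8 overlap other annotated genes, whose reads their counts may include.

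The RefSeq table of GRCm38.p6 held promoter windows, 250 bases before to 50 after the start, for 3 of the 7 receptors: Ngfr, Ntrk2 and Gfra1. They were searched on both strands for the letters TGTGGT, the core bound by RUNX factors, since Runx1 was among the genes that fell. The window of Ntrk2, chr13:58806319-58806618 on the forward strand, held it once, starting 234 bases before the start, and is printed with those letters in capitals.

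Ntrk2 promoter: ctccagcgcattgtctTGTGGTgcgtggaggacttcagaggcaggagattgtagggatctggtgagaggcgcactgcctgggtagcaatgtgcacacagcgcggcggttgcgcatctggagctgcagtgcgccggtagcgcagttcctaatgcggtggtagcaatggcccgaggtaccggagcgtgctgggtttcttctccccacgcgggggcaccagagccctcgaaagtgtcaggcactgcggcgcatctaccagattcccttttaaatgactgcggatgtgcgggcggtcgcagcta

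The same letters occurred in 16.8% of 32851 promoter windows of this length, and those of Gfra1 and Ngfr did not hold them. A match of letters is a description of the sequence and not a measured site. Ret and Gfra2, the receptors that fell, had no window to search, and no receptor that was searched was called.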

How the data were processed

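The gene annotation and strand use are not given in the sources used here. Per the submitters' processing notes, Salmon 0.11.1 and the mm9 build were used, with no role stated. Gene values are log2 CPM in a single table the authors deposited, in which a small prior is added to the reads before scaling to the library total. Its 41422 lines held 40800 distinct gene identifiers, and repeated identifiers carried identical values and were used once. The value of 0 reads was -1.79, and 100% of the values gave whole reads within 0.02 of a read, with a prior averaging 2 reads.

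Mutants were compared with wild types by a two-sided limma 3.58.1 fit (R 4.3.3) whose eBayes step let the variance follow the level, with Benjamini-Hochberg adjustment over all genes above 0 log2 CPM in at least 4 of 8 samples. An adjusted p under 0.05 is a call. Ratios were compared by exact permutation over all 70 assignments. The labels give each sample a number but no litter or preparation, so p-values measure the spread between these samples, which may be partly technical. The receptors and the lists were chosen with earlier results of these data known. Named genes are Tmem184b, the 7 receptors, every called gene, ligand and other receptor of the pathway lists, called genes of cell lists that stand beside a receptor, and the 3 genes most correlated with each called receptor. Wild types and mutants share the numbers 1, 3 and 4. Deviations of same-numbered samples from their group means correlated weakly, by 0.081, 0.041 and 0.058. Running numbers in the column names, of unstated meaning, were lower in every mutant than in every wild type. Whatever they stand for cannot be told apart from genotype in any comparison here. Alternatives were scaling, filter, added CPM, variance model, sample weights, an Xist covariate, the replicate block, voom on the recovered reads and single samples left out. Some values and sequences of the listed genes are not reported here.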

Additional observations from a re-analysis of the deposited data

Results flagged for a closer look

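Of 44 groups of 4 values examined, 4 had 1 value set well apart; by chance about 1 in 20 would. Wild type 4 had an Ntrk2 to Ntrk3 log2 ratio of 0.74, beside 0.82 to 0.83 in the other wild types. Mutant 4 had a Gfra2 level relative to the NP1 list mean of 0.72, beside 0.61 to 0.62 in the other mutants. Sorcs1 measured 5.88 log2 CPM in mutant 2, beside 6.11 to 6.12 in the other mutants. Spred2 measured 6.01 log2 CPM in mutant 4, beside 6.28 to 6.31 in the others.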

How the results depend on the processing

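Ret and Gfra2 stayed lower and called in 20 of 21 alternatives each, with differences of -0.40 to -0.24 and -0.59 to -0.43. Without the variance trend both lost the call (-0.31 and -0.49). Leaving out 1 sample at a time gave -0.36 to -0.26 for Ret, -0.56 to -0.43 for Gfra2, 0.15 to 0.25 for Ntrk2, -0.0048 to 0.10 for Gfra3 and -0.0092 to 0.11 for Ntrk3. Ntrk2 gained the call under pan-neuronal centring (0.27), quantile normalization (0.25) and a threshold of 0.1 (0.20). Under median centring Gfra3 was -0.03 and Ntrk3 -0.06, and the negative left-out values came without mutant 1 for Gfra3 and without mutant 3 for Ntrk3. Left-out values were 0.33 to 0.43 for Ret and 0.16 to 0.21 for Gfra2 relative to the NP1 list.

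Genes called higher and lower numbered 876 and 612 at a threshold of 0.1 and 67 and 75 with no variance trend; median centring gave 204 and 706, and pan-neuronal centring 986 and 249. Quantile normalization called 271 higher. With 1 sample left out they numbered 174 to 572 and 230 to 427. Pathway genes called higher and lower numbered 2 and 10 at a threshold of 0.1, 0 and 1 with no trend, 0 and 10 under median centring, 3 and 2 under pan-neuronal centring, and 0 to 2 and 2 to 7 with 1 sample left out. Quantile normalization called 0 pathway genes higher. The causes were not tested.

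With the replicate number as a block, over the 6 samples with shared numbers, Ret was -0.36 (adjusted p = 0.0155), Gfra2 -0.58 (adjusted p = 0.0032), and 326 genes were called higher and 345 lower. Dropping the block on those 6 samples gave 180 and 267, and 2 pathway genes lower. Same-numbered samples correlated by 0.081, 0.041 and 0.058, not every sample correlated best with its own number, and the pairing rests on the number alone. Genes with few reads, most ligands among them, are limited by depth.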
